A study of Mus musculus with 6 samples.

Results

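Transcripts of the PARP family were measured in mouse AE9a leukemia cells, a model of acute myeloid leukemia driven by a truncated AML1-ETO fusion. The members were the 10 genes Parp1, Parp2, Parp3, Parp4, Parp8, Parp9, Parp10, Parp11, Parp12 and Parp14, picked by gene symbol out of the 23608 rows of the deposited count table. Parp8 held 0 counts in 5 libraries and 0.5 counts in oil 4 and could not be tested, so 9 members were tested among 11614 genes. None of the 9 passed the test between the groups. The largest differences were in Parp9, which averaged 1.47-fold higher with tamoxifen and was higher in 3 of 3 tamoxifen libraries, and in Parp1, which averaged 1.35-fold lower but was clearly lower in only 2 of the 3.

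Both groups of mice carried the same leukemia. Fetal liver cells of the genotype Usp18+/f UBCER-Cre, transduced with a retrovirus for AE9a and GFP, had been passed into irradiated recipients. These mice were then injected with oil or tamoxifen. The study's methods describe injection of sick mice for depletion in established leukemia. For this RNA they state only that cells were sorted after 3 injections. In the oil group (Usp18+/f, n = 3) the floxed copy of Usp18 and the unactivated Cre were both present, and in the tamoxifen group (labeled Usp18+/D, n = 3) tamoxifen was meant to activate the Cre and delete that copy. This Cre is not restricted to one tissue of the donor, and oil mice received no tamoxifen, so tamoxifen, Cre activity and the deletion cannot be told apart in this design. RNA was sequenced from spleen cells sorted as GFP-positive, c-Kit-positive and lineage-negative, taken 3 days after injections began. The study's methods describe adult mice of both sexes, and the labels give no age.

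PARP enzymes use NAD to attach ADP-ribose to proteins and other molecules. Parp1, Parp2 and Parp3 are nuclear enzymes that are switched on by DNA breaks, and Parp1 and Parp2 build chains of poly(ADP-ribose) that recruit repair factors. Most other members add single ADP-ribose units, and several of them, Parp9, Parp10, Parp12 and Parp14 among these, are known as interferon-stimulated genes. Usp18 removes the ubiquitin-like protein ISG15 and restrains signaling from the type I interferon receptor, so the comparison bears on whether the interferon-inducible members and the DNA-break enzymes differed between the oil and tamoxifen groups.

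The promoters of the members were searched for the core of the interferon-stimulated response element, GAAANNGAAA, and for the STAT dimer site (GAS), TTCNNNGAA, each on both strands, in RefSeq windows of 300 bases (250 before and 50 after the annotated start, build GRCm38.p6). Windows were found for 7 members, not for Parp9, Parp10 or Parp14, and Parp11 had windows at 2 starts, which made 8 windows. The response element core occurred in 2 of the 8, beside 3.44% of all 32851 promoter windows, and GAS occurred in 1, beside 8.3%. The Parp4 window is shown because it held 2 overlapping cores, which began 150 and 144 bases before the start, and the first Parp11 window because it held a core 44 bases before the start that overlapped the GAS match 37 bases before it. Dtx3l, the gene next to Parp9, is shown because its window covers the annotated starts of 4 of the 7 Parp9 transcripts on the opposite strand. It held neither motif. The window was placed by the Dtx3l start and is not a Parp9 promoter window. The bases before the Parp9 starts were not all searched, so it is not known whether they hold either motif. Capitals mark the bases of the response element core.
Parp4 (chr14:56575369-56575668, plus strand): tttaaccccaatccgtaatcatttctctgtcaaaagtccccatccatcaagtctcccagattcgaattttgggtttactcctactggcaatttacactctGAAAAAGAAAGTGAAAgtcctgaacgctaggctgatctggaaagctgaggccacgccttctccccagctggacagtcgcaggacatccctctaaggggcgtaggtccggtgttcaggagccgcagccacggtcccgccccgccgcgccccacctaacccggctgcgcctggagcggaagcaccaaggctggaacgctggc
Parp11 (chr6:127446590-127446889, plus strand): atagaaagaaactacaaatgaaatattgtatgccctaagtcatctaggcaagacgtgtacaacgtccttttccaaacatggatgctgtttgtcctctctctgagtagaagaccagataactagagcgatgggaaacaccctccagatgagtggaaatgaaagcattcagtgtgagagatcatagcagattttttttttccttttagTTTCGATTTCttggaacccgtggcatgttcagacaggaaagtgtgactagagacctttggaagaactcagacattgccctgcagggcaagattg
Dtx3l and Parp9 (chr16:35938978-35939277, minus strand): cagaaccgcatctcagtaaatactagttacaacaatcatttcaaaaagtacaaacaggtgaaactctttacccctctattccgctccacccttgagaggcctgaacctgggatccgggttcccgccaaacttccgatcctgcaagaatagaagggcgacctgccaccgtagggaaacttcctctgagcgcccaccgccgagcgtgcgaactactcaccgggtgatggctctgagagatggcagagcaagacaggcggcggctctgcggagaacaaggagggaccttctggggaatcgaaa

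These matches are letters in a window, not binding sites. The 2 members with a core, Parp4 and Parp11, had log2 fold changes of 0.29 and 0.082.

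The libraries held between 17118964 and 20741399 counts. Usp18, the targeted gene, did not fall. Its level, in CPM (read counts scaled to the size of each library), was 9.12, 11.0 and 11.2 for oil 1, 3 and 4, against 15.1, 28.0 and 19.4 for tamoxifen 1, 2 and 4 (log2 fold change 0.998, SE 0.23, edgeR adjusted p = 0.0739), and all directions here rest on the labels. Libraries are called by the numbers of the table columns, since the sample titles number them otherwise. On the first principal component tamoxifen 4 scored -2.99, between the other tamoxifen libraries (37.3 and 47.5) and the oil libraries (-31.1 to -23.4), so values without it are given where they change a call. Tamoxifen 4 was thus singled out from these same data. Leaving it out raised the share of all genes called in edgeR from 1.75% to 19.2% higher and from 0.267% to 17.1% lower. A call made only without tamoxifen 4 therefore does not set a gene apart. The c-Kit transcript Kit was at 439 CPM or more in every library, and the summed level of Kit, Cd34, Runx1 and Myb was 1410 CPM in each oil library and ran from 1510 to 2080 CPM in tamoxifen. Of the marker genes, edgeR called Cd34, Nkg7 and Hmox1 higher. The T cell genes Cd3e and Cd8a and the neutrophil genes S100a8 and Ly6g were at 0 in all 6 libraries. The summed level of 9 macrophage markers ran from 5.57 to 9.68 CPM in oil and from 9.83 to 24.4 CPM in tamoxifen, and that of 7 erythroid markers from 3470 to 5740 CPM and from 2760 to 7150 CPM (highest in tamoxifen 1 and 2, lowest in tamoxifen 4). The sums of 4 B cell markers stayed at or below 0.878 CPM and those of 6 neutrophil markers at or below 0.412 CPM. Among 8 T and NK cell markers 6 were at 0 throughout, and the sum, almost all Nkg7, ran from 1.13 to 2.57 CPM and from 7.62 to 56.4 CPM. The part of these transcripts in the results below was not tested. In bulk RNA, fewer cells of a kind and less RNA per cell cannot be told apart.

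The resting pattern of the family in the oil libraries was dominated by Parp1. Compared per kilobase of the principal transcript, Parp1 was at 178 ± 6.18 RPKM, Parp9 at 33.7 ± 1.66, Parp14 at 27.8 ± 2.94, Parp2 at 23.2 ± 1.63, Parp10 at 21.1 ± 2.02, Parp4 at 8.26 ± 0.681, Parp11 at 7.07 ± 0.37, Parp12 at 6.35 ± 0.998 and Parp3 at 3.40 ± 0.146 (mean level ± SD, n = 3 each). The ranges of the 3 oil libraries overlapped between Parp2 and Parp10 and between Parp11 and Parp12, so these neighbors did not differ beyond their spread, while Parp14 and Parp2 met at 24.8 RPKM. With tamoxifen the order of the means was the same except that Parp10 (24.9 ± 3.71 RPKM) stood above Parp2 (20.4 ± 3.63 RPKM), and Parp1 remained the highest at 132 ± 42.3 RPKM. The plot of levels per length shows each library.

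**Figure D1:**
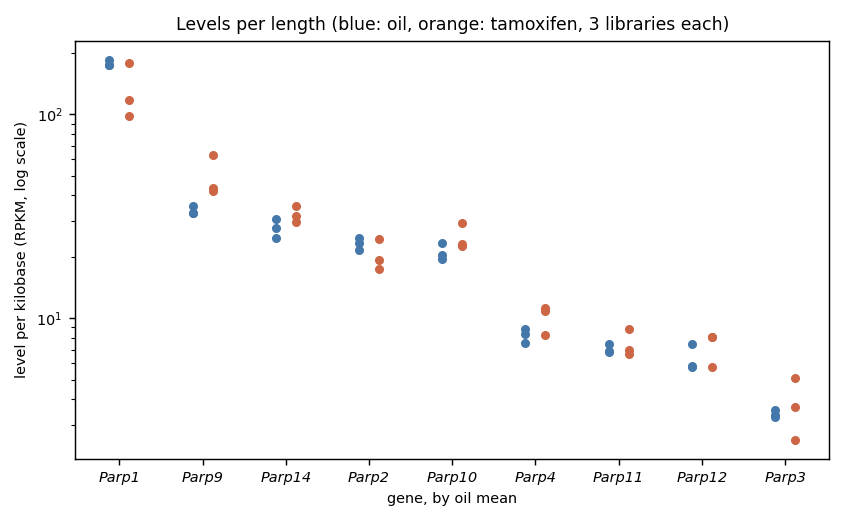
Levels per kilobase of principal transcript (RPKM, log scale) of the 9 tested members in each library, with 3 oil libraries in blue and 3 tamoxifen libraries in orange, ordered by the oil mean. Parp1 lies far above the rest in oil (174 to 185 RPKM) and spreads from 98 to 179 RPKM with tamoxifen.

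The DNA-break enzymes were examined first. Parp1 (chromosome 1, 180568924 to 180601254, plus strand), the main poly(ADP-ribose) polymerase of the nucleus, measured 678, 717 and 674 CPM across oil 1, 3 and 4, against 458, 379.5 and 694 CPM across tamoxifen 1, 2 and 4. Tamoxifen 1 and 2 lay far below every oil library, whereas tamoxifen 4 lay inside the oil range, so the groups overlapped. The means were 689.9 ± 23.9 and 511 ± 164 CPM (SD, n = 3 each), and the log2 fold change was -0.43 (SE 0.20, 95% interval -0.89 to 0.026, edgeR adjusted p = 0.263). Without tamoxifen 4, Parp1 had a log2 fold change of -0.72 (SE 0.089, edgeR adjusted p = 0.000339).

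Parp2 (chromosome 14, 50807841 to 50821301), which works beside Parp1 at single-strand breaks, showed the same arrangement of libraries. It measured 46.9, 40.7 and 44.1 CPM across oil 1, 3 and 4, against 33.0, 36.4 and 46.2 CPM across tamoxifen 1, 2 and 4, so that again tamoxifen 1 and 2 were below all oil libraries and tamoxifen 4 was not. The log2 fold change was -0.19 (SE 0.14, 95% interval -0.51 to 0.13, edgeR adjusted p = 0.446), and -0.34 (SE 0.10, adjusted p = 0.0266) without tamoxifen 4. Parp3 (chromosome 9), the third of these enzymes and the least abundant tested member, measured 10.5, 9.98 and 9.67 CPM across oil 1, 3 and 4, against 10.9, 15.1 and 7.51 CPM across tamoxifen 1, 2 and 4. The 3 tamoxifen values of Parp3 spread around the oil values on both sides (log2 fold change 0.15, SE 0.24, adjusted p = 0.742).

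Parp4 (chromosome 14, 56575619 to 56659794, plus strand) encodes the PARP of the vault particle, a large ribonucleoprotein of the cytoplasm. It measured 53.3, 56.8 and 48.2 CPM across oil 1, 3 and 4, against 71.5, 68.7 and 53.1 CPM across tamoxifen 1, 2 and 4. Tamoxifen 1 and 2 were above all oil libraries and tamoxifen 4 was within them. The log2 fold change was 0.29 (SE 0.13, 95% interval -0.012 to 0.59, edgeR adjusted p = 0.259), and 0.41 (SE 0.090, adjusted p = 0.00613) without tamoxifen 4. An antisense gene, Gm16573, shares 335 bases, or 5.13%, of the Parp4 exons, and since the strand setting of the counting was not stated, reads there cannot be assigned.

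The other protein genes of the vault were also read. Tep1, a vault protein that binds its RNA, measured 20.035, 22.5 and 23.9 CPM across oil 1, 3 and 4, against 32.6, 49.7 and 32.3 CPM across tamoxifen 1, 2 and 4. All the tamoxifen values of Tep1 were above all the oil values, yet it missed the threshold in edgeR (log2 fold change 0.79, SE 0.18, adjusted p = 0.0764) and passed in the DESeq2 Wald test (adjusted p = 0.00341) and in edgeR without tamoxifen 4 (0.89, adjusted p = 0.00278). Mvp, the major vault protein, named after its values were seen, had a log2 fold change of 0.27 (SE 0.12, edgeR adjusted p = 0.253), and 0.35 (adjusted p = 0.0198) without tamoxifen 4.

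**Figure D2:**
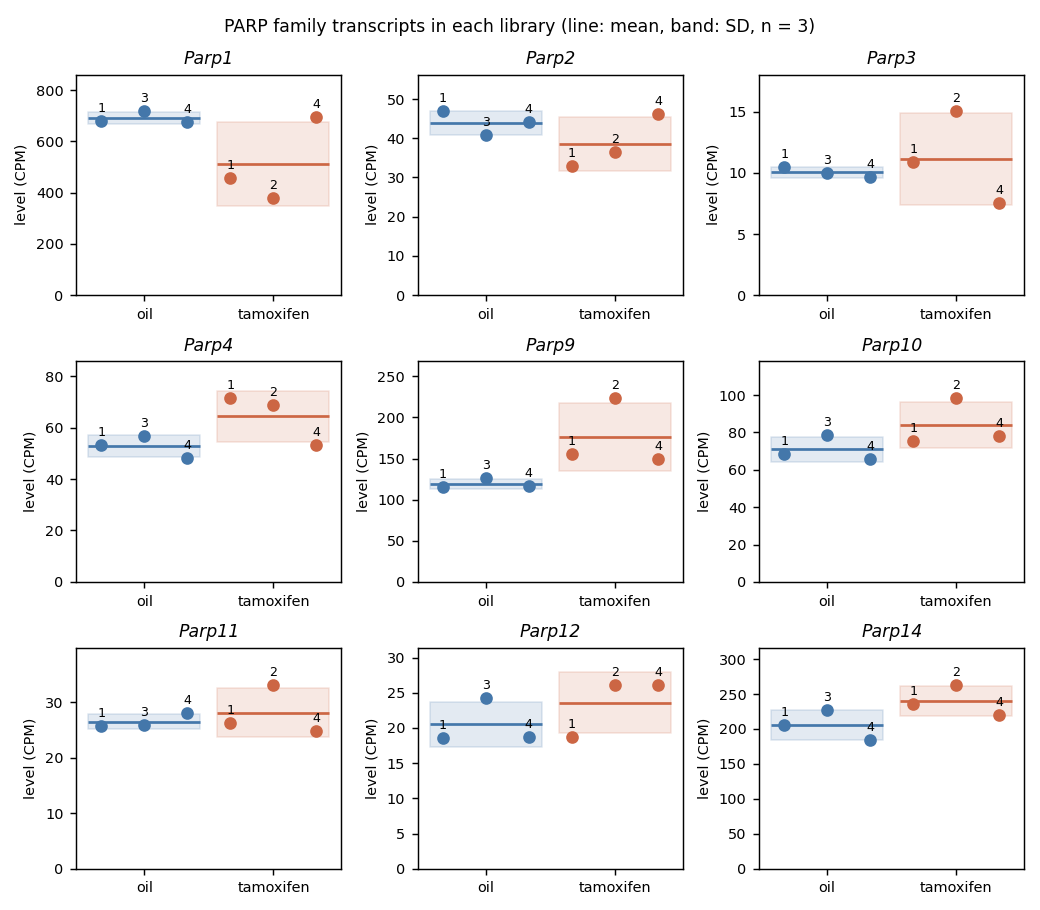
Level (CPM, axis from 0) of the 9 tested members in each oil (blue) and tamoxifen (orange) library, numbered as in the table, with the mean (line) and SD (band, n = 3). Parp9 is the only panel in which all 3 tamoxifen values lie above all 3 oil values, and in Parp1 and Parp2 the value of tamoxifen 4 sits with oil.

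The macrodomain members carry modules that bind ADP-ribose, and both are encoded within one stretch of chromosome 16. Parp9 (35938470 to 35972605, plus strand) forms a complex with the ubiquitin ligase Dtx3l. It measured 115.6, 126 and 117 CPM across oil 1, 3 and 4, against 155, 223 and 149 CPM across tamoxifen 1, 2 and 4. All 3 tamoxifen libraries were above all 3 oil libraries, with tamoxifen 2 the highest. The means were 119 ± 5.87 and 176 ± 41.4 CPM (SD, n = 3 each), with a log2 fold change of 0.56 (SE 0.16, 95% interval 0.20 to 0.91), an unadjusted p of 0.00696 and an edgeR adjusted p of 0.113. Parp9 passed the threshold in the DESeq2 Wald test (adjusted p = 0.0205) and in edgeR without tamoxifen 4 (log2 fold change 0.66, adjusted p = 0.00347), and it was 0.35 without tamoxifen 2 (adjusted p = 0.175).

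Dtx3l (35926511 to 35939151, minus strand), the partner of Parp9, starts 681 bases from it on the opposite strand and shares 458 exon bases with it, 9.4% of the Parp9 exons. The counting strand was not stated, so reads in that overlap cannot be assigned to either gene. Dtx3l measured 153, 152 and 142 CPM across oil 1, 3 and 4, against 177, 235 and 192 CPM across tamoxifen 1, 2 and 4. As for Parp9, the tamoxifen libraries lay above the oil libraries (log2 fold change 0.43, SE 0.12, edgeR adjusted p = 0.105, DESeq2 adjusted p = 0.0224), and without tamoxifen 4 Dtx3l passed in edgeR (0.46, adjusted p = 0.00893). The ratio of Parp9 to Dtx3l counts, which needs no scaling between libraries, equaled 0.754, 0.828 and 0.820 across oil 1, 3 and 4, against 0.878, 0.951 and 0.777 across tamoxifen 1, 2 and 4, and the groups overlapped.

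Parp14 (35832874 to 35871544, minus strand) lies 66926 bases from Parp9 between the starts and is known as a co-activator of STAT6. It had a smaller log2 fold change than Parp9, though no test compared these members. It measured 206, 228 and 184 CPM across oil 1, 3 and 4, against 236, 263 and 220.1 CPM across tamoxifen 1, 2 and 4. Tamoxifen 4 fell below oil 3, so the groups overlapped (log2 fold change 0.22, SE 0.11, 95% interval -0.031 to 0.47, edgeR adjusted p = 0.292). Without tamoxifen 4 the value was 0.28 (SE 0.095, adjusted p = 0.0443). The ratio of Parp14 to Parp9 counts equaled 1.78, 1.80 and 1.58 across oil 1, 3 and 4. Across tamoxifen 1, 2 and 4 it equaled 1.52, 1.18 and 1.48, lower in each than in any oil library. Its denominator, Parp9, was itself higher in each tamoxifen library. This ratio was not planned and was not tested.

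The remaining mono-ADP-ribosyltransferases showed small differences inside the spread between libraries. Parp10 (chromosome 15), a cytoplasmic enzyme first found as a Myc partner, measured 68.7, 78.6 and 65.6 CPM across oil 1, 3 and 4, against 75.7, 98.4 and 78.0 CPM across tamoxifen 1, 2 and 4, with a log2 fold change of 0.24 (SE 0.13, edgeR adjusted p = 0.308), and of 0.12 without tamoxifen 2. Of its exon bases 4.8% are shared with Plec on the same strand. Parp12 (chromosome 6), a zinc finger member that acts against several viruses, measured 18.6, 24.2 and 18.7 CPM across oil 1, 3 and 4, against 18.7, 26.1 and 26.1 CPM across tamoxifen 1, 2 and 4. Oil 3 thus stood with tamoxifen 2 and 4, and tamoxifen 1 stood with the other oil libraries (log2 fold change 0.20, SE 0.18, adjusted p = 0.515), and with 1 library left out the fold change of Parp12 ran from 0.12 to 0.35. Parp11 (chromosome 6), a member found at the nuclear envelope, ran from 25.6 to 28.1 CPM in oil and from 24.9 to 33.1 CPM in tamoxifen, with a log2 fold change of 0.082 and a 95% interval of -0.23 to 0.39 (adjusted p = 0.737). The upper limits of the 95% intervals were 0.53 for Parp10 and 0.61 for Parp12, and no difference between members was tested.

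**Figure D3:**
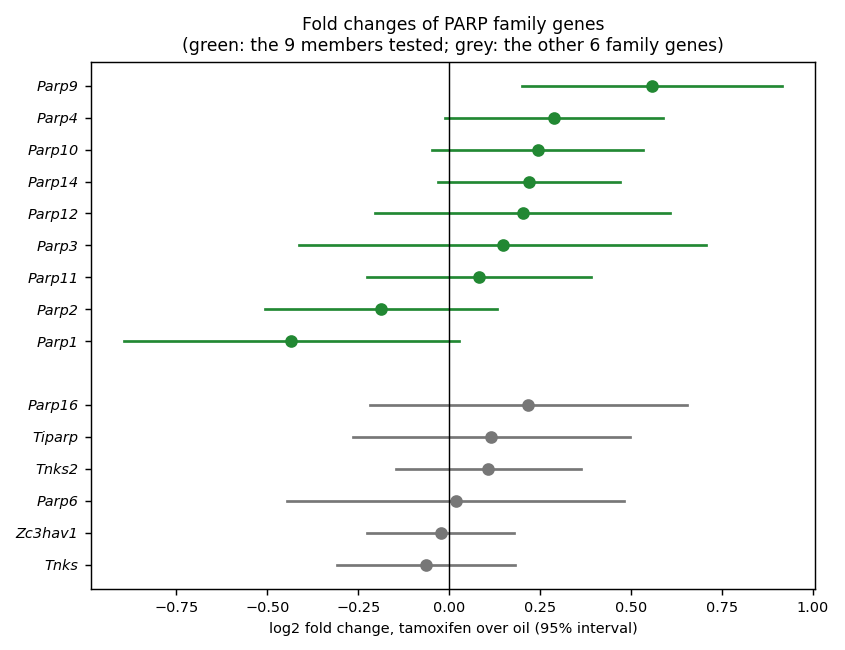
Log2 fold change of tamoxifen over oil with its pointwise 95% interval from edgeR (x axis) for the 9 tested members (green) and the other 6 family genes (grey). Parp9 (0.56, interval 0.20 to 0.91) is the only gene whose interval lies wholly on one side of 0, and Parp1 has the lowest estimate (-0.43).

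Taken as a group, 0 of the 9 tested members passed an edgeR adjusted p of 0.05 in either direction, while among all genes 1.75% were called higher and 0.267% lower. By unadjusted p under 0.05 the count was 1 higher (Parp9) and 0 lower, beside 12.6% and 7.99% of all genes. The groups did not overlap for 1 member, with tamoxifen above oil, and for 0 with tamoxifen below oil, beside 13.3% and 11.8% of all genes, so these shares were near the background. The DESeq2 Wald test called 1 member higher (Parp9) and 0 lower, where it called 6.14% and 1.99% of all genes. Of the 9 members 7 had a positive log2 fold change, and the median was 0.20 beside 0.0001 over all genes.

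The tamoxifen libraries varied more among themselves than the oil libraries for 8 of the 9 members, Parp14 being the exception. This was not particular to the family. Over expressed genes as a whole, pairs of tamoxifen libraries differed by a chi-square of 18.5 to 69.7 per degree of freedom. Pairs of oil libraries differed by 7.39 to 10.2. The coefficient of variation of Parp1 was 3.47% in oil and 32.1% in tamoxifen, that of Parp9 4.92% and 23.5%, and that of Parp3 4.29% and 33.9%. Relative to the oil mean, Parp1 stood at -0.59, -0.86 and 0.010 log2 units in tamoxifen 1, 2 and 4, and Parp9 at 0.38, 0.90 and 0.32. Tamoxifen 2 thus held the lowest Parp1 and the highest Parp9, and tamoxifen 4 had a raised Parp9 without a lowered Parp1. The ratio of Parp9 to Parp1 counts within a library equaled 0.170, 0.176 and 0.173 across oil 1, 3 and 4, against 0.339, 0.589 and 0.214 across tamoxifen 1, 2 and 4, above all oil values in each tamoxifen library. This ratio was formed after its values were seen and was not tested.

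**Figure D4:**
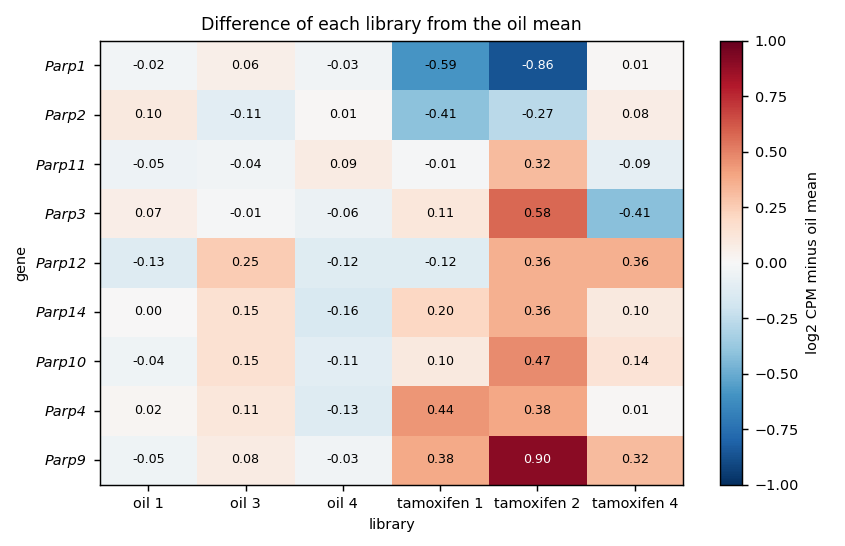
Difference of each library (columns) from the oil mean in log2 CPM for the 9 tested members (rows, ordered by log2 fold change), with red above and blue below the oil mean. Tamoxifen 2 shows the extremes, -0.86 for Parp1 and 0.90 for Parp9, and in tamoxifen 4 Parp1, Parp2 and Parp4 stay within 0.08 of the oil mean.

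Without tamoxifen 4, edgeR called 5 of the 9 members. Parp9, Parp4 and Parp14 were higher, beside 19.2% of all genes, and Parp1 and Parp2 were lower, beside 17.1%. Leaving out any other library left 0 members called. Without tamoxifen 2 the fold changes of Parp3 (-0.13) and Parp11 (-0.051) turned negative, so the direction of these members rested on 1 library.

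**Figure D5:**
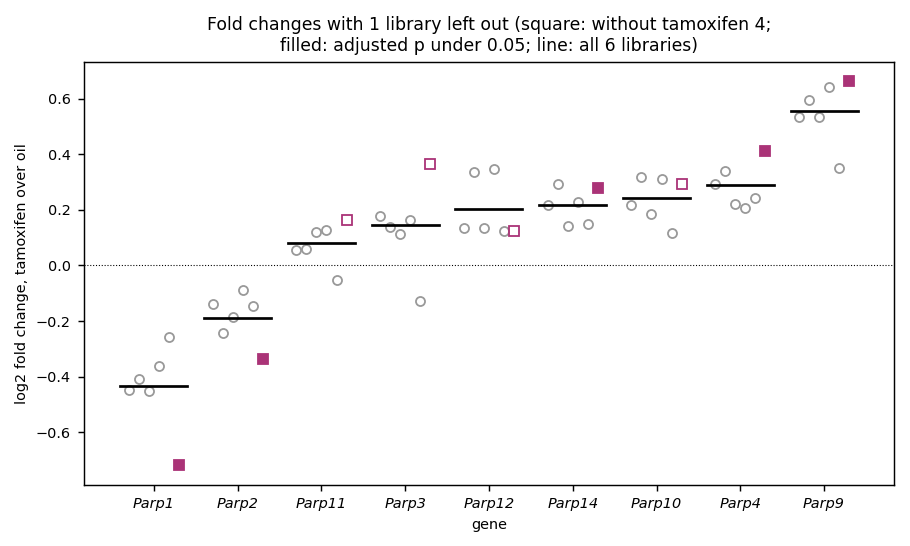
Log2 fold change of tamoxifen over oil (y axis) for each tested member when 1 library was left out, as circles, or as squares for the fit without tamoxifen 4, with filled symbols for an edgeR adjusted p under 0.05 and a black line for all 6 libraries. Filled symbols appear for Parp1, Parp2, Parp4, Parp9 and Parp14, and only as squares.

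The other 6 family genes in the table were read in the same way. Of Tnks, Tnks2, Parp6, Tiparp, Zc3hav1 and Parp16, 0 were called, 4 had a positive log2 fold change and the median was 0.063. The largest were Parp16, a PARP of the endoplasmic reticulum (0.22, SE 0.19, edgeR adjusted p = 0.515), Tiparp, a target gene of the aryl hydrocarbon receptor (0.12, SE 0.17, adjusted p = 0.701), and the tankyrase Tnks2 (0.11, SE 0.11, adjusted p = 0.581). Their order rested on single libraries, since Parp16 was 0.064 and Tnks2 0.0075 without tamoxifen 1, and Tiparp was 0.0027 without oil 3. Zc3hav1, the antiviral zinc finger member without catalytic activity, named after its values were seen, was at 203 to 231 CPM in oil and at 210.4 to 229 CPM in tamoxifen, entirely inside the oil range. The 95% interval of its log2 fold change was -0.23 to 0.18.

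Genes that act with the family were then counted. Among 10 tested partners and erasers of ADP-ribosylation, which include the glycohydrolase Parg, 0 were called, 4 were positive and the median was -0.018. The largest were Tep1 and Dtx3l, above, and Macrod1, an ADP-ribose hydrolase (0.40, SE 0.21, edgeR adjusted p = 0.309), which passed without tamoxifen 4 (0.60, adjusted p = 0.00958). Hpf1, the cofactor that directs Parp1 and Parp2 to serine, named after its values were seen, measured 106, 94.6 and 101 CPM across oil 1, 3 and 4, against 73.2, 72.6 and 102 CPM across tamoxifen 1, 2 and 4. Its libraries were arranged like those of Parp1, with tamoxifen 4 inside the oil range (log2 fold change -0.29, SE 0.14, adjusted p = 0.290), and without tamoxifen 4 it was -0.46 (SE 0.079, adjusted p = 0.00178).

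Of 11 strand-break repair partners of Parp1 and Parp2, 9 had a negative log2 fold change, with a median of -0.095, and 0 were called. Aptx, which removes adenylate from stalled ligation ends, had the largest value (0.54, SE 0.15, edgeR adjusted p = 0.111), followed by Timeless, a Parp1-binding replication fork protein (-0.50, SE 0.19, adjusted p = 0.203), and Xrcc1, the scaffold recruited by poly(ADP-ribose) (-0.42, SE 0.20, adjusted p = 0.274). Timeless measured 135, 127 and 137 CPM across oil 1, 3 and 4, against 73.2, 82.3 and 126 CPM across tamoxifen 1, 2 and 4. All 3 tamoxifen values of Timeless were below all 3 oil values, with tamoxifen 4 only just below. Without tamoxifen 4, edgeR called Timeless (-0.77, adjusted p = 0.000154) and Xrcc1 (-0.64, adjusted p = 0.00658) lower, beside 17.1% of all genes. The same fit called Aptx higher (0.65, adjusted p = 0.00413), beside 19.2% of all genes. DESeq2 called Aptx with all libraries (adjusted p = 0.0299). Among 10 tested genes of NAD synthesis and NAD use, 0 were called, 6 were positive and the median was 0.096. Nmnat2, which makes NAD from its mononucleotide, measured 29.0, 29.2 and 33.7 CPM across oil 1, 3 and 4, against 48.0, 56.9 and 40.6 CPM across tamoxifen 1, 2 and 4. Nmnat2 did not overlap between the groups and missed the threshold in edgeR (log2 fold change 0.66, SE 0.14, adjusted p = 0.0600) but passed in DESeq2 (adjusted p = 0.00196) and in edgeR without tamoxifen 4 (0.77, adjusted p = 0.000735). Qprt (0.25, SE 0.34, edgeR adjusted p = 0.687) and Nmrk1 (0.17, SE 0.19, adjusted p = 0.603) were next in size.

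The interferon signaling genes that served as a reference had positive log2 fold changes in all 9 that were tested. Their median was 0.98, and 0 were called in edgeR. By unadjusted edgeR p under 0.05, 8 were higher and 0 lower, beside 12.6% and 7.99% of all genes. The groups did not overlap for 6 with tamoxifen above oil and for 0 with tamoxifen below, beside 13.3% and 11.8%. This list was chosen with earlier results of these data known. The largest were the effector Ifit1 (2.18, SE 0.47, adjusted p = 0.0609), the transcription factor Irf7 (1.48, SE 0.41, adjusted p = 0.114) and Oasl2 (1.27, SE 0.31, adjusted p = 0.0827). DESeq2 called Ifit1 (adjusted p = 5.48e-05) and Oasl2 (0.00254) but not Irf7 (0.0706). Without tamoxifen 4, edgeR called Ifit1 (adjusted p = 0.00277), Irf7 (0.00561) and Oasl2 (0.00408), and without tamoxifen 2 the log2 fold change of Irf7 was 0.80 (adjusted p = 0.187). Irf7 measured 16.8, 27.2 and 18.5 CPM across oil 1, 3 and 4, against 34.1, 101 and 38.7 CPM across tamoxifen 1, 2 and 4.

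The genes whose profile over the 6 libraries was nearest to the 3 members with the largest log2 fold changes were found by the root mean square difference of log2 CPM, each centered on its own mean, over genes with a mean of at least 1 CPM. Nearest to Parp9 were Sema4a (0.062), Igtp (0.064) and Rnf166 (0.075). Nearest to Parp1 were Cks1b (0.039), 1700030K09Rik (0.047) and Ccnf (0.049). Nearest to Parp4 were Xkr9 (0.027), Pxn (0.032) and Flii (0.033). Cks1b, a subunit of cyclin-dependent kinases, measured 112, 116 and 113 CPM across oil 1, 3 and 4, against 75.4, 59.8 and 108 CPM across tamoxifen 1, 2 and 4. Its tamoxifen libraries had the same order as those of Parp1, a likeness for which the search itself selected.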

How the data were processed

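RNA was sequenced from sorted leukemia cells of 3 oil and 3 tamoxifen recipients, a set that the labels call batch 2. Unscaled estimated counts in steps of 0.5, 1 row per gene symbol, were deposited by the authors; their processing notes name STAR, DESeq2 and mm10, while the counting program, strand setting and annotation were not given in the sources used here. Counts were rounded to whole numbers. Analyses used R 4.3.3. Genes were filtered with filterByExpr, scaled by TMM and tested with the quasi-likelihood F test of edgeR 4.0.16 without a block; p-values were adjusted by Benjamini-Hochberg over 11614 genes, with a threshold of 0.05. Standard errors came from the F statistics, and log2 CPM used a prior count of 2. Genes called by the DESeq2 1.42.0 Wald test and by limma 3.58.1 voom are alternatives. The scripts were tested on simulated data with a capped spread and no outlying library, which does not cover the spread of the tamoxifen libraries. RPKM was computed from CPM and GENCODE M21 principal transcripts (GRCm38), which also gave positions; promoter windows came from RefSeq.

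Column numbers 1 and 4 match sample titles; oil 3 and tamoxifen 2 were placed by the group in the column name. No per-sample column was left out. The deviations of same-numbered libraries from their group means correlated at -0.127 and 0.062, so pairing by number was not seen. Numbers 1 and 4 alone gave these values, which cannot exclude a pairing. Replicates of a group differed by a chi-square of at least 7.39 per degree of freedom, more than counting error alone would give. No library was thus the same library sequenced again. This value cannot show whether the libraries came from separate mice. The labels call the replicates biological and the study counts mice. The members and lists were chosen with earlier results of these data known. Named are all members, Usp18, the 3 largest changes and any called gene of each list, and others where said; likeness was sought for the 3 members with the largest changes. The result of a called marker gene is not reported here.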

Additional observations from a re-analysis of the deposited data

How the results depend on the processing

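The count of all genes called was 713 higher and 231 lower with the DESeq2 Wald test, 48 and 6 with limma-voom, 372 and 61 without a low-count filter, and 120 and 17 at a mean of at least 50 counts. With the replicate block it was 215 and 26. With 1 library left out at a time it ran from 8 to 2278 higher and from 0 to 2024 lower, both upper values without tamoxifen 4. Of the members, DESeq2 called 1 higher (Parp9), and the fits with 1 library left out called 0 to 3 higher and 0 to 2 lower, with those 5 calls made without tamoxifen 4 alone. DESeq2 size factors, upper-quartile scaling, limma-voom and both filters called 0 members. The other lists held 6 family genes, 10 partners and erasers, 10 NAD genes, 11 repair partners and 9 interferon genes tested in the main fit. Among the genes of these lists, where 0 were called, DESeq2 called 8 higher, the fit without a filter 5 and the replicate block 3. The fits with 1 library left out called 0 to 13 higher and 0 to 7 lower. The log2 fold change of Usp18 was 0.9997 in DESeq2, 0.99 without a filter and 0.73 to 1.18 with 1 library left out, past the threshold in the first 2 of these and without tamoxifen 4 (1.04). The cause of these differences was not tested.

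Parp1, Parp2, Parp4, Parp9, Parp10, Parp12 and Parp14 kept their direction in all 13 alternative fits. Parp9 ran from 0.35 to 0.66 (adjusted p from 0.00347 to 0.396) and Parp1 from -0.72 to -0.26 (0.000339 to 0.781). The replicate block treats libraries of the same number as a pair, and only numbers 1 and 4 are shared by the groups. Oil 3 and tamoxifen 2 each stood alone in a block and added nothing to the group difference. That edgeR fit thus rests on libraries 1 and 4 of each group, and pairing by number was not seen. In it no member was called, the interferon genes Ifit1 (adjusted p = 0.000202) and Irf7 (0.00238) were, and Parp9 was 0.39. Parp3 (-0.16), Parp11 (-0.071), Tiparp (-0.062) and Qprt (-0.023) reversed. Without tamoxifen 2, Parp3 (-0.13), Parp11 (-0.051) and Qprt (-0.082) reversed, and their highest values with 1 library left out were 0.36, 0.16 and 0.54. The order of levels kept all 9 places with DESeq2 size factors and 7 with the longest transcript as length, where Parp10 stood above Parp2. With the union of exons as length, chosen after seeing the data, Parp10 stood above Parp2 and Parp12 above Parp11, so 5 of 9 places were kept; Parp2 was then at 12.1 RPKM and Parp11 at 3.77 RPKM. Parp8 stayed below the level of 3 counts, which corresponded to between 0.145 and 0.177 CPM, and the cause was not tested. These floors reflect counting error alone, because the counts carry no molecular identifiers and several may come from 1 molecule.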
